A study of Sus scrofa with 12 samples.

Results

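The genes described here encode proteins of the respiratory chain and of ATP synthase, and they were chosen by name alone. Of the 19681 Ensembl pig genes in the tables, 79 carried such a symbol. The 12 mitochondrial genes were ND1, ND2, ND3, ND4, ND4L, ND5 and ND6 of complex I, CYTB of complex III, COX1, COX2 and COX3 of complex IV, and ATP6 of ATP synthase. ATP8 is not analysed here. The 67 nuclear genes had symbols beginning with NDUFA, NDUFB, NDUFC, NDUFS, NDUFV, SDH, UQCR, COX4I, COX5, COX6, COX7, COX8, ATP5F, ATP5M or ATP5P. They held 26 subunits of complex I, 4 of complex II, 6 of complex III, 15 of complex IV, 10 of ATP synthase and 6 assembly factors of complex I (the NDUFAF genes). Genes whose identifier had no symbol could not be matched, and the number of subunits missed was not determined. COX6B1 and ATP5MC2, for example, are absent, so statements on a complex cover only the genes matched. NDUFA4 and NDUFA4L2 were counted with complex IV, to which NDUFA4 is known to belong.

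RNA was sequenced from 4 groups of porcine cells with 3 replicates each (A, B and C). AOC is a porcine endothelial cell line, which stands for a finished endothelial state. IEC2, IEC4 and IEC12 are porcine induced pluripotent stem cells after 2, 4 and 12 days of endothelial induction. By the study's methods, CHIR99021 was given until IEC2, BMP4, FGF2 and VEGF were then added until IEC4, and the cells were kept in EGM-2 medium with VEGF until IEC12. The IEC12 cells had not been sorted for CD31. Libraries of undifferentiated and of sorted cells (iPS and S) were not used here. The study's methods call the replicates biological repeats, and neither they nor the labels say whether these were separate cultures. The p-values measure the spread between these samples. Each gene had 1 FPKM value in each library, that is, a number of fragments divided by transcript length and by all fragments of the library. FPKM is given per length, but levels of different genes can be set side by side only roughly.

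The respiratory chain passes electrons from NADH (complex I) and succinate (complex II) over complex III to complex IV, where oxygen is reduced. Complexes I, III and IV pump protons out of the mitochondrial matrix, and ATP synthase (complex V) uses their return to make ATP. All of these complexes but complex II are built from subunits of both genomes. The mitochondrial subunits lie in the catalytic or membrane core and are cut from long transcripts of the mitochondrial DNA, while the nuclear subunits are transcribed separately and imported. Pluripotent cells are known for a high rate of glycolysis, and differentiation often goes along with more oxidative metabolism.

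The labels were checked against marker genes before the results were read. Of 14 endothelial markers, 12 were found, and their summed FPKM lay between 299 and 425 in AOC. In IEC12 the sum was 0.703 to 2.63, with 11 of the 12 genes under an FPKM of 1 and CDH5 (VE-cadherin) listed at 0 in all 3 libraries. By these markers the IEC12 libraries did not show an endothelial profile, and IEC12 is used below only as the name of a stage. By flow cytometry the study found a minority of CD31-positive cells before sorting at this stage. PECAM1, which encodes CD31, was at 0.0197 to 0.105 in IEC12 and at 91.7 to 131 in AOC. The reason for this difference was not tested. Neural markers (8 of 9 found) summed to 393 to 418 in IEC12, nearly all of it from STMN2, against 29.8 to 35.7 in IEC4 and 10.3 to 14 in AOC. Epithelial markers (7 of 8 found) summed to 543 to 1557 in IEC4 and to no more than 144 elsewhere. Pluripotency markers (4 of 9 found, without POU5F1 and SOX2) summed to 0 to 0.155 in IEC2 and 3.56 to 7.66 in IEC4. Their sum was 0.369 to 1.59 in IEC12 and 0 to 0.0462 in AOC. Most of the IEC4 sum came from LIN28A, at 3.94, 3.01 and 5.86. NANOG was at 0.236, 0.286 and 0.53 in IEC4 and at 0.248, 1.07 and 0.874 in IEC12. These few low genes differed in their order, so the stages were not ranked by pluripotency. Markers of cardiac muscle, a tissue rich in mitochondria, summed to at most 3.23 in any library. Only 10 of 15 were found, without TNNI3, MYH7, MYL7, NPPA and TTN, so cardiac cells were not assessed by these. The part of these cell types in the changes below was not tested, and in bulk RNA fewer cells of a type and less RNA per cell cannot be told apart.

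The mitochondrial genes gave a rising share of the summed FPKM from IEC2 to IEC12, while the share of the nuclear genes rose only from IEC4 to IEC12. The 12 mitochondrial genes summed to an FPKM of 6872, 7474 and 6712 in IEC2 A, B and C. In IEC4 the sums were 14922, 18159 and 26939.7, and in IEC12 they were 68627, 40302 and 30135. AOC, at 26113, 24129 and 31159, lay between IEC2 and IEC12 and overlapped with both IEC4 and IEC12. As a share of the summed FPKM of all genes, this was 1.95% to 2.19% in IEC2, 4.28% to 7.10% in IEC4, 7.77% to 15% in IEC12 and 5.65% to 7.05% in AOC. No IEC2 library reached the lowest IEC4 library, and no IEC4 library reached the lowest IEC12 library. The 67 nuclear genes took 1.27% to 1.54% in IEC2, 1.17% to 1.30% in IEC4, 1.70% to 1.85% in IEC12 and 2.08% to 2.18% in AOC. For these genes IEC2 and IEC4 overlapped, and the highest share was found in the endothelial cell line.

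The mean of log2(FPKM + 1) over each set of genes, is a level that weights every gene equally. The mitochondrial mean was 7.70 ± 0.151 in IEC2, 8.97 ± 0.584 in IEC4, 10.41 ± 0.669 in IEC12 and 9.57 ± 0.0951 in AOC (SD, n = 3). The nuclear mean was 4.68 ± 0.118, 4.69 ± 0.226, 5.28 ± 0.0972 and 5.62 ± 0.0468 for the same groups in this order. The difference between both means was thus smallest in IEC2, at 3.01 ± 0.259, and largest in IEC12, at 5.12 ± 0.62. It was 4.28 ± 0.362 in IEC4 and 3.95 ± 0.0588 in AOC, which differed by less than the SD of IEC4. In terms of summed FPKM, mitochondrial over nuclear, the ratio was 1.5 ± 0.206 in IEC2, 4.48 ± 0.916 in IEC4, 6 ± 1.88 in IEC12 and 2.96 ± 0.26 in AOC. In single libraries IEC4 and IEC12 overlapped in both measures. The difference was 4.64 in IEC4 C and 4.61 in IEC12 C. The ratio was 5.46 in IEC4 C, 5.3 in IEC12 B and 4.57 in IEC12 C. These values describe the members and carry no test. Without IEC12 A the step of the difference between both means from IEC4 to IEC12 was 0.49.

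**Figure D1:**
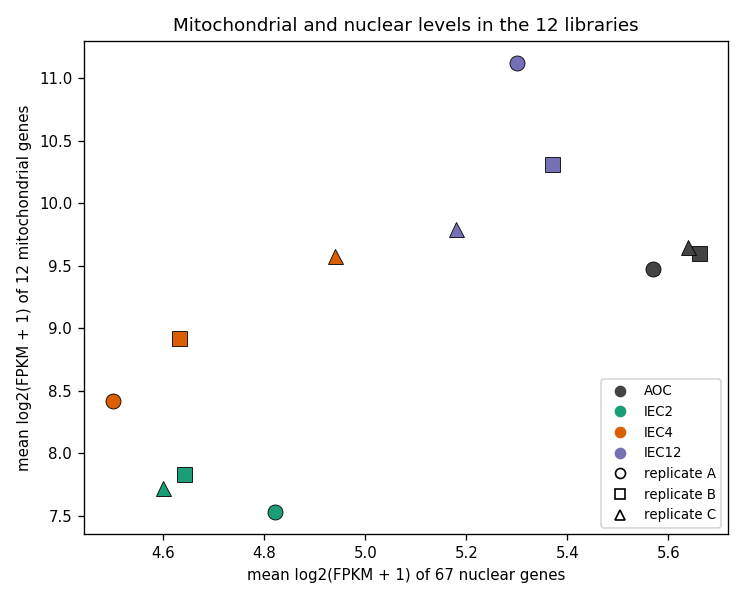
Mean log2(FPKM + 1) of the 12 mitochondrial genes (vertical axis) against that of the 67 nuclear genes (horizontal axis), 1 point per library, with colour for the group and shape for the replicate. IEC4 lies above IEC2 at about the same nuclear level, IEC12 is highest on the vertical axis, and AOC is farthest to the right.

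Within IEC4 and IEC12 the libraries differed far more in mitochondrial than in nuclear genes. Replicate A of IEC12 had the highest value for 12 of 12 mitochondrial genes, and replicate C had the lowest for 12 of 12. In IEC4 replicate C was highest and replicate A lowest for 12 of 12. The median ratio of the highest to the lowest replicate over the mitochondrial genes was 2.35 in IEC12 and 2.12 in IEC4, but 1.33 in AOC and 1.31 in IEC2. For the nuclear genes it was 1.32, 1.56, 1.18 and 1.35. The relative depth of the libraries, estimated from the steps between low FPKM values, was between 0.844 and 1.26, highest in IEC12 A, and its part in this spread was not tested.

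The mitochondrial genes are given in their order along the mitochondrial genome, with positions from RefSeq on Sscrofa11.1, the assembly called susScr11 in the submitters' processing notes. ND1 lies at MT:3922-4876, ND2 at MT:5087-6128, COX1 at MT:6511-8055, COX2 at MT:8203-8890, ATP6 at MT:9120-9800 and COX3 at MT:9800-10583. Behind them follow ND3 at MT:10653-10998, ND4L at MT:11069-11365, ND4 at MT:11359-12736, ND5 at MT:12935-14755, ND6 at MT:14739-15266 and CYTB at MT:15342-16481. Some neighbours share bases: 1 between ATP6 and COX3, 7 between ND4L and ND4, 17 between ND5 and ND6, and 43 between ATP8 and ATP6. The sources do not state that counting used the strand, so reads over these bases cannot be assigned to either gene. Nuclear copies of mitochondrial DNA could also take reads, and values of single mitochondrial genes are uncertain to that extent.

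Of the 7 mitochondrial subunits of complex I, ND1 showed the clearest steps. Its FPKM was 134, 199 and 171 in IEC2, 492, 498 and 566 in IEC4, 1982, 1177 and 1010.4 in IEC12, and 392, 514 and 686 in AOC. Every IEC4 library was above every IEC2 library and below every IEC12 library, while AOC overlapped with IEC4. ND2 was at 229 to 272 in IEC2, 469 to 992 in IEC4, 1706 to 3895 in IEC12 and 994 to 1422 in AOC. ND4 was at 408 to 445, 691 to 1484, 2046 to 4697 and 1151 to 1222 in these groups. ND5 behaved differently, with 1226, 1137 and 1055 in IEC2, 1175, 1538 and 1927 in IEC4, 4671, 3028 and 2334 in IEC12, and 1012, 904 and 1056 in AOC. It was the only mitochondrial gene with its lowest mean in AOC rather than in IEC2, and its IEC2 and IEC4 values overlapped. ND3 had its highest mean in AOC, with 6.55, 13.3 and 13.7 in IEC2 and 215, 295 and 222 in AOC. Its IEC4 values of 21.7, 37.0 and 86.6 and its IEC12 values of 221, 113 and 74.3 overlapped. ND4L (6.08 to 122 over all libraries) and ND6 (3.62 to 43.9), which lies on the opposite strand of the mitochondrial DNA, had the lowest FPKM of the 12. The ratio of ND4 to its neighbour ND4L, which has 297 bases, had group means from 34.8 in AOC to 58.8 in IEC4. How far short length lowers such values was not tested, so this order is not read as an order of transcript amounts.

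CYTB, the only mitochondrial subunit of complex III, had an FPKM of 390, 369 and 372 in IEC2 and of 1337, 1753 and 2810.0 in IEC4. It then reached 6986, 4663 and 3289 in IEC12, and was 2644, 2471 and 3094 in AOC. The 3 IEC stages were separate for this gene, and the AOC values fell within the range of IEC4 or above it but below IEC12. The core subunits of complex IV differed among themselves. COX1, which holds the oxygen-reducing centre, was at 1788, 1681 and 1318 in IEC2, 1944, 2154 and 2989.8 in IEC4, 6804, 3956 and 2539 in IEC12, and 1768, 1977 and 2148 in AOC. COX2, which takes up electrons from cytochrome c, was at 887, 1159.8 and 1129 in IEC2, 1169, 1587 and 2491 in IEC4, 13209, 5811 and 3639 in IEC12, and 9273, 7591 and 11149.6 in AOC. For COX1 the AOC values overlapped with both IEC2 and IEC4, whereas for COX2 every AOC library was above every IEC2 and IEC4 library and in the range of IEC12. COX3 was at 372 to 397 in IEC2, 756 to 2387 in IEC4, 2266 to 5451 in IEC12 and 1169.8 to 1269 in AOC.

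ATP6, which forms part of the proton channel of ATP synthase, had the highest level of all 79 genes in IEC4 and IEC12. Its FPKM was 1390.2, 1814 and 1563 in IEC2, 6857, 7819.9 and 11155 in IEC4, 20545, 12667 and 11182 in IEC12, and 7276, 6547 and 9186 in AOC. The step from IEC2 to IEC4 was wide, while the highest IEC4 and the lowest IEC12 library were nearly equal, and AOC overlapped with IEC4.

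**Figure D2:**
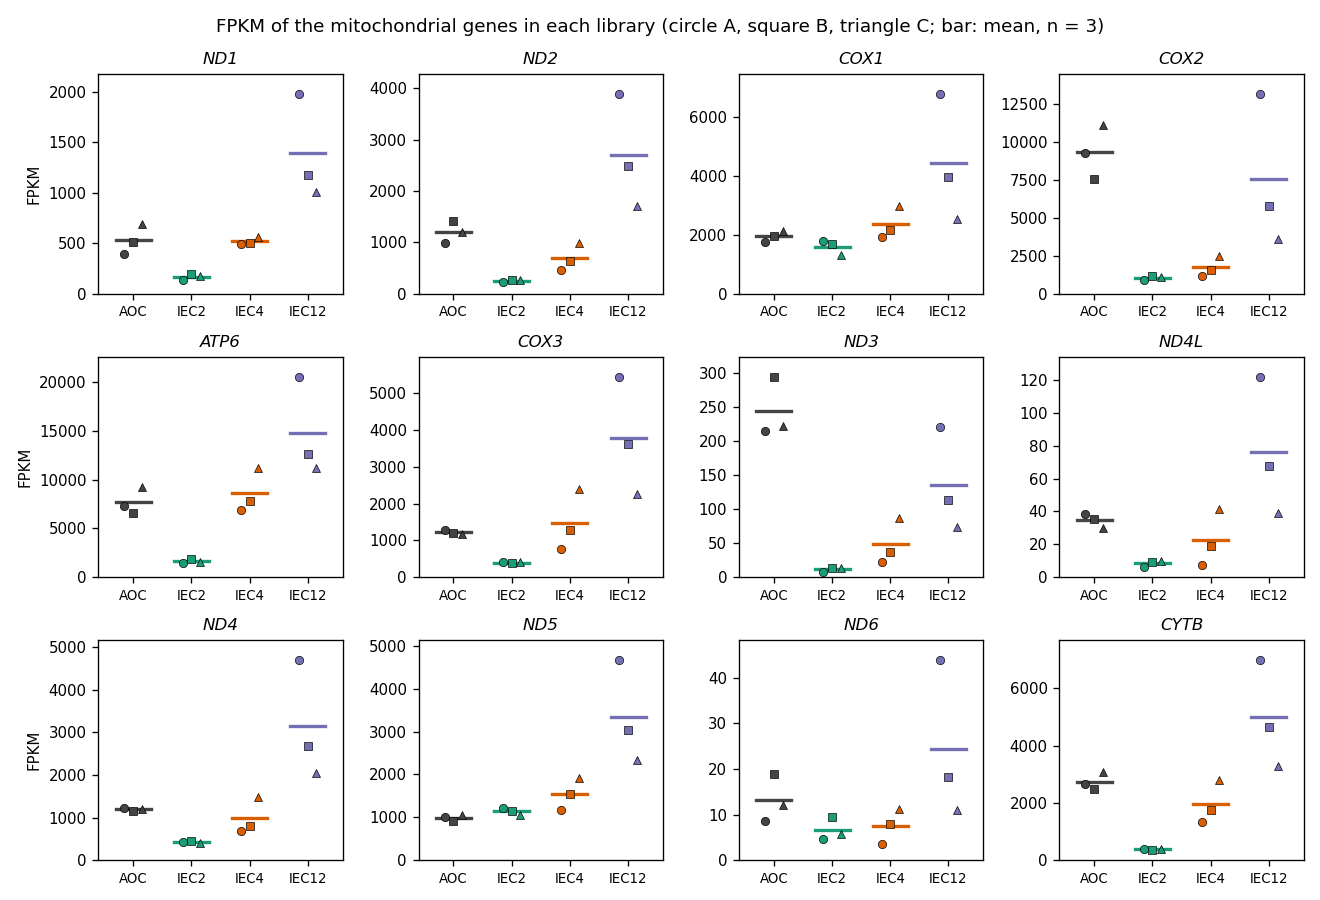
FPKM of the 12 mitochondrial genes on linear axes from 0, by group, with a circle, square and triangle for replicates A, B and C and a bar for the mean (n = 3). IEC12 A is the highest point of its group in every panel, and ND3 and COX2 have their highest mean in AOC.

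The make-up of the mitochondrial RNA therefore differed between groups. COX1 and ND5 took 22.7% ± 3.2 and 16.3% ± 1.39 of the summed mitochondrial FPKM in IEC2 (SD, n = 3), against 7.29% ± 0.789 and 3.67% ± 0.253 in AOC. ATP6 took 43.5% ± 2.3 in IEC4, and COX2 took 34.3% ± 2.42 in AOC. The ratio of COX2 to COX1 was 0.681 ± 0.181 in IEC2, 0.724 ± 0.117 in IEC4, 1.61 ± 0.284 in IEC12 and 4.76 ± 0.796 in AOC, and AOC did not overlap with the other groups. The ratio of ATP6 to COX1 set IEC2 apart, with 1.01 ± 0.212 there and 3.63 ± 0.102, 3.54 ± 0.752 and 3.9 ± 0.518 in IEC4, IEC12 and AOC. The ratio of CYTB to ND5 was 0.332 ± 0.0181 in IEC2, 1.25 ± 0.184 in IEC4, 1.48 ± 0.0667 in IEC12 and 2.76 ± 0.16 in AOC. Ratios within a library do not depend on its scaling. They show that the genes changed unequally, and not which of them stayed the same.

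**Figure D3:**
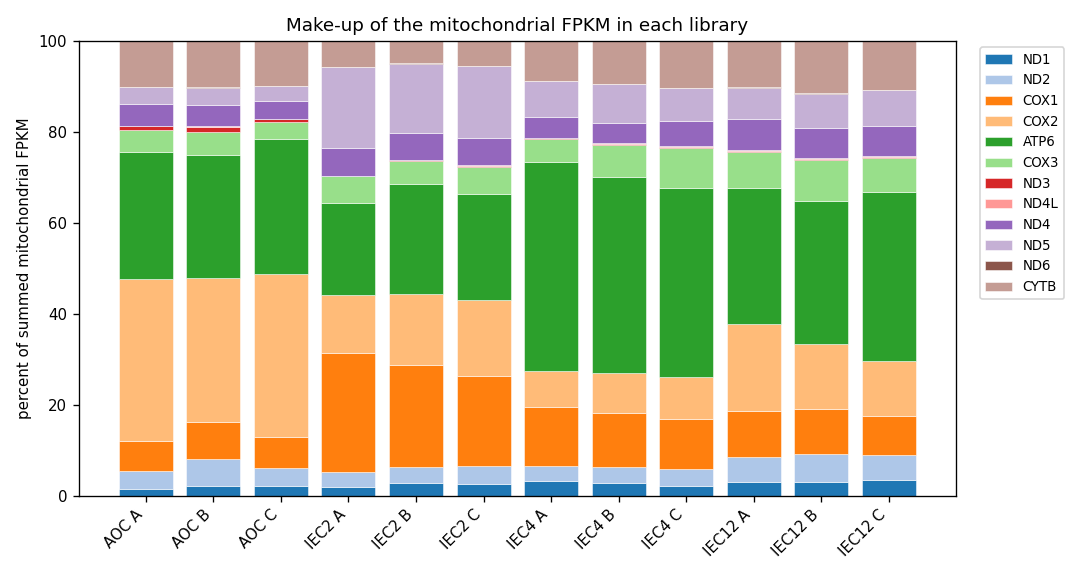
Share of each mitochondrial gene in the summed FPKM of the 12 genes, in percent, stacked in 1 bar per library. COX1 and ND5 are widest in IEC2, ATP6 is widest in IEC4 and COX2 is widest in AOC, and the 3 replicates of each group have similar bars.

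Between the stages, genes were tested with limma on log2(FPKM + 1) over every gene that reached an FPKM of 1 in 3 or more libraries, and passed with a Benjamini-Hochberg adjusted p under 0.05. Fold changes are on this scale, which understates the changes of low genes. In the 9 IEC libraries 10542 genes were tested, among them all 12 mitochondrial and 64 of the 67 nuclear genes. NDUFA11, COX6B2 and COX7A1 were too low there, and NDUFA11 was added in the fit of 12 libraries, where 11053 genes were tested. NDUFA4L2 in both fits, NDUFS6 in the IEC fit and NDUFA11 in the fit of 12 libraries reached the minimum only through the group in which they were highest.

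IEC4 against IEC2 asks what changed when BMP4, FGF2 and VEGF followed the CHIR99021 treatment. Of the 12 mitochondrial genes, 7 were higher in IEC4 and 0 were lower, where 24.8% of all genes tested were higher and 12.5% lower. At an unadjusted p under 0.05 the numbers were also 7 and 0. ATP6 rose 5.33-fold (log2 fold change 2.41, SE 0.253, limma adjusted p = 9.94e-05) and CYTB rose 4.96-fold (2.31, SE 0.301, adjusted p = 0.000358). ND3, COX3, ND1, ND2 and ND4 followed with log2 fold changes between 1.15 and 1.86. Of these, ND3 and ND4 no longer passed without IEC4 C, without IEC2 A or without the filter on low values, which left 5 genes higher in each case, and ND4 also did not pass without IEC2 C or with median-of-ratios scaling, which left 6. COX1 (0.55, SE 0.319), COX2 (0.66, SE 0.423), ND5 (0.41, SE 0.253), ND4L (1.05, SE 0.56) and ND6 (0.11, SE 0.492) did not pass, although ND4L did without IEC4 A (1.67). Of the 64 nuclear genes, 5 were higher and 3 lower, a smaller share in each direction than among all genes. NDUFA4L2 is among the 3, and without it 2 were lower. With median-of-ratios scaling 3 of the 64 were higher and 4 lower. The median log2 fold change was 1.27 for the mitochondrial genes, -0.02 for the nuclear genes and 0.20 for all genes tested, and median-of-ratios scaling moved the last value to 0.07. Of all calls in this comparison 66.5% were higher, and 56.2% with that scaling. With the study's stricter limits, given under IEC12 against IEC2, 0 members passed, where 0.987% of all genes were higher and 0.19% lower.

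IEC12 against IEC4 covers the days in EGM-2 medium. The mitochondrial genes passed as higher in 11 of 12 cases and as lower in 0, also at an unadjusted p for the lower direction, where 17.3% of all genes were higher and 26.9% lower. Of the 64 nuclear genes, 39 were higher and 2 lower, or 1 lower without NDUFA4L2. The median log2 fold change was 1.44 for the mitochondrial genes, 0.68 for the nuclear genes and -0.15 for all genes. COX2 rose 3.92-fold (1.97, SE 0.423, limma adjusted p = 0.005) and ND2 3.81-fold (1.93, SE 0.317, adjusted p = 0.00128), and COX1 (0.82, SE 0.319, adjusted p = 0.0615) did not pass. Leaving out IEC12 A left 6 mitochondrial genes higher, without ATP6, COX3, ND3, ND4L and ND6. Without IEC12 B, IEC4 A or IEC4 B the number was 7, 6 and 6. Scaling to equal totals moved the median of all genes to -0.32 and the share of higher calls among all calls from 39.2% to 25.9%, with 10 mitochondrial and 28 nuclear genes still higher. The study's limits left 0 members, where 0.142% of all genes were higher and 0.797% lower.

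IEC12 against IEC2 spans the whole induction after the CHIR99021 treatment. All 12 mitochondrial genes were higher, where 24.2% of all genes were higher and 19.3% lower, and 38 of 64 nuclear genes were higher and 2 lower. Without NDUFS6 and NDUFA4L2 37 nuclear genes were higher and 1 lower. The median log2 fold change was 2.96 for the mitochondrial genes and 0.68 for the nuclear genes, against 0.03 for all genes. CYTB rose 12.6-fold (3.65, SE 0.301, limma adjusted p = 1.80e-05), ND3 10.6-fold (3.41, SE 0.519, adjusted p = 0.000677), ND2 9.98-fold (3.32, SE 0.317, adjusted p = 4.30e-05) and ATP6 9.03-fold (3.18, SE 0.253, adjusted p = 1.53e-05). COX1 rose least, by 2.58-fold (1.37, SE 0.319, adjusted p = 0.00691). The study's limits were p and q both below 0.001 with a log2 change beyond 3 in either direction. The study set them for iPS cells against AOCs and named no test, and here the adjusted p of limma stands for q. With these limits 5 mitochondrial genes passed, where 0.607% of all genes did so in this direction and 0.617% in the other, and 0 nuclear genes passed. The number of mitochondrial genes was 2 without IEC12 A, 3 without IEC2 A and 8 without IEC12 C, and 3 with equal totals, with the replicate block or without the filter on low values. With equal totals 23 nuclear genes were higher, the median of all genes was -0.18, and the share of higher calls among all calls was 36.8% instead of 55.7%. Without IEC2 C 25 nuclear genes were higher.

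AOC against IEC12 sets the endothelial cell line against the last stage of induction. Of the 12 mitochondrial genes, 0 were higher and 8 lower, where 22.4% of all genes tested were higher and 36.2% lower. At an unadjusted p under 0.05 the number higher was also 0. ND5 was 3.24-fold lower (-1.70, SE 0.23, limma adjusted p = 5.58e-05), COX3 2.93-fold lower (-1.55, SE 0.364, adjusted p = 0.00312) and ND1 2.57-fold lower (-1.36, SE 0.256, adjusted p = 0.000686). ND3 (0.97, SE 0.481, adjusted p = 0.104) and COX2 (0.50, SE 0.397, adjusted p = 0.306) had higher means in AOC and did not pass. Without IEC12 A both passed as higher in AOC, with log2 fold changes of 1.39 and 1.0. With median-of-ratios scaling 5 mitochondrial genes were lower. Of the 65 nuclear genes, 24 were higher and 15 lower in AOC, or 23 and 15 without NDUFA11 and NDUFA4L2. The median log2 fold change was -1.02 for the mitochondrial genes, 0.14 for the nuclear genes and -0.21 for all genes, and median-of-ratios scaling moved the last value to -0.06 and the share of higher calls among all calls from 38.2% to 48.4%. Under the study's limits 0 members passed, where 2.13% of all genes were higher and 2.28% lower.

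**Figure D4:**
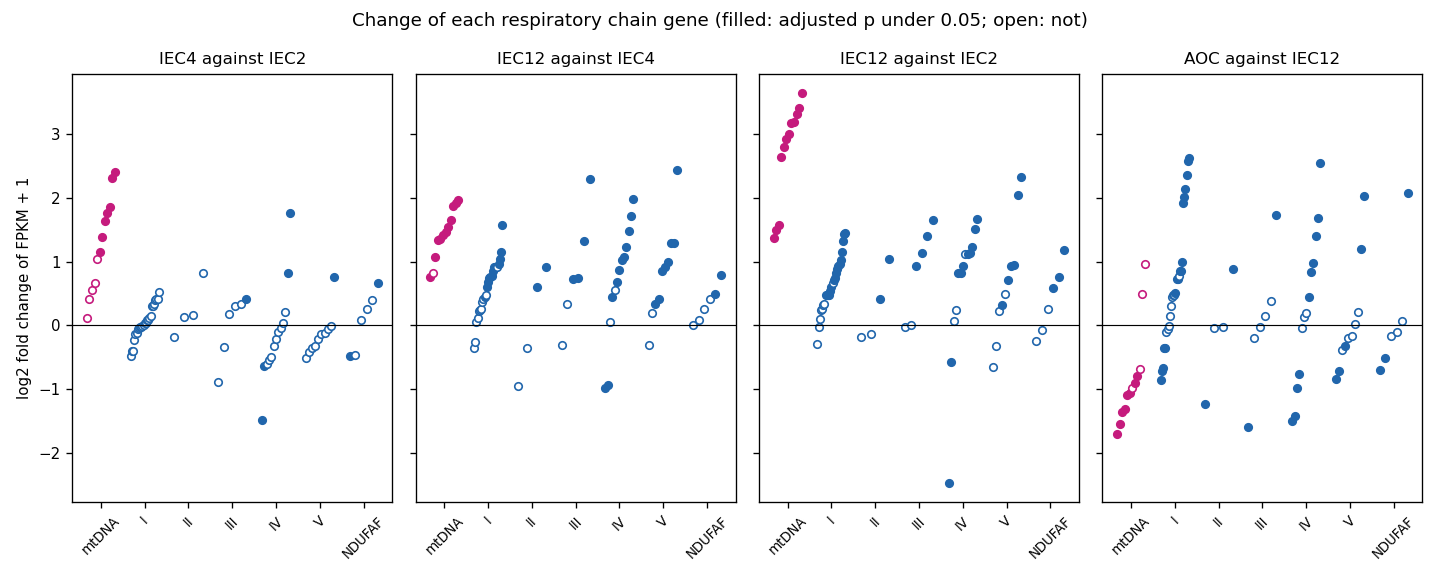
Log2 fold change of FPKM + 1 for each gene tested in the 4 comparisons (vertical axis), by mitochondrial DNA and by nuclear complex, with filled points for an adjusted p under 0.05. In IEC4 against IEC2 the mitochondrial points lie above 0 and all points of nuclear complex I are open, in both IEC12 panels most points lie above 0, and in AOC against IEC12 the nuclear complexes spread to both sides.

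Across the 12 libraries, the nuclear genes had their highest mean in AOC for 34 of 67, in IEC12 for 21, in IEC4 for 7 and in IEC2 for 5. The mitochondrial genes had theirs in IEC12 for 10 of 12 and in AOC for 2. The same count was not made over all genes, so these numbers have no background and are not read as a trait of the members. The 34 include NDUFA11 and the 5 include NDUFA4L2, which reached the minimum only through these groups. The 7 include COX6B2 and COX7A1, which were not tested. All 3 AOC libraries were above the other 9 for 26 of 65 nuclear genes tested and for 0 of 12 mitochondrial genes, where this held for 15.6% of all genes tested. The 26 include NDUFA11, which reached the minimum only through AOC. All 3 IEC12 libraries were above the other 9 for 9 nuclear and 6 mitochondrial genes (ATP6, CYTB, ND1, ND2, ND4 and ND5), with 8.55% among all genes. All 3 IEC2 libraries were below the other 9 for 8 of the 12 mitochondrial and 9 of the 65 nuclear genes, with 9.2% among all genes. All 3 AOC libraries were below the other 9 for 8 nuclear and 0 mitochondrial genes, against 25.7% of all genes. All 3 IEC4 libraries were above the rest for COX4I2 alone (13.7% of all genes), and below the rest for COX7A2L, UQCR11 and UQCRC2, that is 3 of 65 (3.28% of all genes).

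The nuclear genes of complex I hardly moved between IEC2 and IEC4. Of the 25 genes tested with limma, 0 passed, with log2 fold changes between -0.48 and 0.53, and at an unadjusted p under 0.05 there were 2 higher and 1 lower. Among all genes tested 24.8% passed as higher and 12.5% as lower in this step. Their summed FPKM was 1174 ± 172 in IEC2, 1205 ± 165 in IEC4, 1901 ± 130 in IEC12 and 2514 ± 162 in AOC (SD, n = 3). From IEC4 to IEC12, 14 of the 25 rose and 0 fell, also at an unadjusted p under 0.05 for the lower direction, where 17.3% of all genes were higher and 26.9% lower. In AOC against IEC12 13 of 26 were higher and 4 lower, where 22.4% of all genes were higher and 36.2% lower. The 13 include NDUFA11, which reached the minimum only through AOC. NDUFAB1, the mitochondrial acyl carrier protein that is also a complex I subunit, had the highest level. It was at 122, 89.1 and 91.8 in IEC2, 111, 126 and 171 in IEC4, 272, 271 and 221 in IEC12, and 354, 324 and 413 in AOC, so that IEC2 and IEC4 overlapped and IEC12 and AOC were each apart from the rest. NDUFB6, an accessory subunit of the membrane arm, was at 132 to 199 in IEC2, 88.4 to 146 in IEC4, 195 to 239 in IEC12 and 207 to 228 in AOC.

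NDUFS5, an accessory subunit of complex I (chromosome 6, 94913406 to 94919458), had the largest log2 fold change of AOC against IEC12 among the nuclear genes. Its FPKM was 9.92, 10.3 and 7.33 in IEC2, 5.78, 6.13 and 8.03 in IEC4, 43.7, 17.0 and 13.1 in IEC12, and 144, 128 and 143 in AOC. Every AOC library was above every other library, and the log2 fold change against IEC12 was 2.63 (SE 0.333, limma adjusted p = 3.22e-05). NDUFA10, another accessory subunit (chromosome 15, 138999174 to 139031892), was at 32, 36.8 and 27.9 in AOC and at 1.54, 6.05 and 8.31 in IEC12 (2.59, SE 0.396, adjusted p = 0.000148). In IEC2 and IEC4 it was between 4.03 and 8.83, and IEC12 A was the lowest of all 12 libraries. NDUFS1, the iron-sulphur subunit of the electron entry module, went the other way. It was at 58.8 to 66.1 in IEC2, 52.5 to 67.7 in IEC4, 118 to 140 in IEC12 and 67.7 to 77.5 in AOC, so that all IEC12 libraries were above the other 9. Of the 6 assembly factors, NDUFAF5 fell from IEC2 (41.4, 42.2 and 41.2) to IEC4 (28.0, 32.1 and 28.6), with a log2 fold change of -0.48 (SE 0.118, adjusted p = 0.0107). NDUFAF1 rose in the same step (0.67, SE 0.168, adjusted p = 0.0119).

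Complex II, or succinate dehydrogenase, has no mitochondrial subunit and also works in the citric acid cycle. None of its 4 genes passed in IEC4 against IEC2 with limma, nor at an unadjusted p under 0.05. Among all genes tested 24.8% passed as higher and 12.5% as lower there. SDHD, a membrane anchor of the complex (chromosome 9, 39790654 to 39803602), was at 563, 505 and 442 in IEC2, 460, 419 and 435 in IEC4, 751, 654 and 597 in IEC12, and 277, 261 and 303 in AOC. The 3 AOC libraries were the lowest of all and the 3 IEC12 libraries the highest, and AOC against IEC12 gave a log2 fold change of -1.24 (SE 0.12, limma adjusted p = 3.26e-06). SDHB, the iron-sulphur subunit, was highest in AOC instead, with 95.1, 89.4 and 99.1 in AOC, 50.5, 55.0 and 46.9 in IEC12, 20.5 to 34.8 in IEC4 and 21.3 to 28.8 in IEC2. It rose from IEC4 to IEC12 (0.91, SE 0.195, adjusted p = 0.00506) and was higher again in AOC (0.88, SE 0.174, adjusted p = 0.000974). SDHA, the flavoprotein that oxidises succinate, was at 17.3, 64.6 and 80.5 in IEC12, at 77.5 to 95.9 in IEC4, at 36.7 to 64.4 in IEC2 and at 30.7 to 54.8 in AOC. It passed in no comparison, and IEC12 A was the lowest library of all. The other membrane anchor, SDHC, was at 37.0, 65.2 and 75.8 in IEC12 and between 45.9 and 84.8 elsewhere, and passed in no comparison either.

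Of the 6 nuclear genes of complex III, 1 was higher and 1 lower in AOC against IEC12, and 4 did not pass. Among all genes tested 22.4% were higher and 36.2% lower, so these counts do not set the complex apart. Both genes that passed are given here. UQCR11, a small accessory subunit, was at 49.9, 46.6 and 33.8 in IEC2, 20.9, 16.9 and 33.0 in IEC4, 251, 113 and 54.5 in IEC12, and 413, 357 and 393 in AOC. The IEC12 libraries spread widely but all lay above IEC4 and below AOC. It rose 4.93-fold from IEC4 to IEC12 (2.30, SE 0.466, limma adjusted p = 0.00369) and was 3.32-fold higher in AOC than in IEC12 (1.73, SE 0.426, adjusted p = 0.00418). UQCRQ, a subunit close to cytochrome b, was at 242, 250 and 200 in IEC12 against 78.2, 70.2 and 76.7 in AOC, 75.2 to 118 in IEC4 and 66.0 to 84.8 in IEC2. It was the nuclear gene that was lowest in AOC relative to IEC12 (-1.60, SE 0.166, adjusted p = 6.25e-06). UQCRFS1, the Rieske iron-sulphur protein, was at 15 to 18.4 in IEC2, 20.7 to 23.5 in IEC4, 34.9 to 37.5 in IEC12 and 40.0 to 40.6 in AOC, with no overlap between the groups. UQCRC1, a large core protein, was at 91.2, 157 and 192 in IEC12 and between 128 and 192 in the other groups, and passed in no comparison.

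Complex IV held the genes with several isoforms, which differed between the groups. COX4I1 and COX4I2 are alternative forms of subunit IV, of which COX4I2 is known as the form of low oxygen and of lung. COX4I2 was at 0.641, 0.531 and 0.539 in IEC2, 3.08, 4.11 and 6.23 in IEC4, and 1.12, 2.54 and 1.88 in IEC12. In AOC it was at 0.128 in replicate A and listed at 0 in B and C. The stages did not overlap, and the gene rose from IEC2 to IEC4 (1.76, SE 0.254, limma adjusted p = 0.000639) and fell from IEC4 to IEC12 (-0.94, SE 0.254, adjusted p = 0.0149). COX4I1 was at 7.28, 6.35 and 9.46 in IEC2, 3.18, 4.35 and 9.17 in IEC4, 7.71, 8.01 and 8.31 in IEC12, and 16.8, 34.8 and 20.7 in AOC. It passed only in AOC against IEC12 (1.41, SE 0.318, adjusted p = 0.00234). The ratio of COX4I1 to COX4I2 went from a mean of 13.6 ± 3.43 at IEC2 to 1.19 ± 0.247 at IEC4, and stood at 4.83 ± 1.9 in the IEC12 libraries (SD, n = 3).

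NDUFA4L2, a relative of NDUFA4 known as a target of hypoxia signalling (chromosome 5, 22540482 to 22548418), was highest in IEC2. It was at 5.24, 4.47 and 4.43 in IEC2, 1.08, 0.944 and 1.1 in IEC4, and 0, 0.0526 and 0.035 in IEC12, and it was listed at 0 in all 3 AOC libraries. The groups did not overlap between IEC2, IEC4 and IEC12. No test is given, because the gene entered the fit only through IEC2. NDUFA4 itself was at 73.2 to 92.3 in IEC2, 60.6 to 113 in IEC4, 190, 202 and 141 in IEC12, and 71.5 to 106 in AOC, so that all IEC12 libraries were above the rest. COX6A1 and COX6A2 are the liver type and the heart and muscle type of subunit VIa. COX6A2 was at 56.5, 51.1 and 55.0 in IEC2, 43.0, 46.7 and 51.1 in IEC4, 57.1, 71.7 and 64.8 in IEC12, and 21.2, 22.0 and 23.0 in AOC, where all libraries were below the other 9. COX6A1 was at 29.6 to 42.8 in IEC2, 33.7 to 55.2 in IEC4, 110, 79.2 and 61.6 in IEC12, and 158, 146 and 182 in AOC. The ratio of COX6A1 to COX6A2 was 0.637 ± 0.111 in IEC2, 0.862 ± 0.193 in IEC4, 1.33 ± 0.528 in IEC12 and 7.34 ± 0.64 in AOC (SD, n = 3). AOC against IEC12 passed for both, at 0.98 (SE 0.24, adjusted p = 0.00402) for COX6A1 and -1.50 (SE 0.114, adjusted p = 4.42e-07) for COX6A2.

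COX7A2 and COX8A had the highest mean FPKM over all 12 libraries among the nuclear complex IV genes, while in IEC2 and IEC4 COX7A2L had the highest mean (417 and 265). COX7A2, the widely expressed form of subunit VIIa (chromosome 1, 90696746 to 90703407), was at 179, 145 and 119 in IEC2, 75.8, 74.6 and 153 in IEC4, 679, 290 and 162 in IEC12, and 939, 983 and 1156 in AOC. AOC was above all other libraries (1.68 against IEC12, SE 0.427, limma adjusted p = 0.00503). The muscle form COX7A1 stayed below an FPKM of 0.6 in every library and was not tested, and so was COX6B2, the testis form of subunit VIb, with at most 1.03. COX7A2L, a protein that joins complexes III and IV, fell from 485, 412 and 354 in IEC2 to 266, 268 and 261 in IEC4 (-0.64, SE 0.126, adjusted p = 0.00353). It was at 281, 272 and 279 in IEC12 and 307, 293 and 309 in AOC. COX7C, a small membrane subunit, rose from 8.06, 6.08 and 8.28 in IEC2 to 16.9, 12.5 and 12.8 in IEC4 (0.83, SE 0.168, adjusted p = 0.00396) and was at 23.6, 22.4 and 22.9 in IEC12 and 12.4, 14.0 and 12.8 in AOC.

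COX5B, which binds zinc (chromosome 3, 56630297 to 56632107), was among the genes with the widest spread in IEC12. It was at 7.43, 7.44 and 4.15 in IEC2, 3.72, 3.53 and 7.89 in IEC4, 50.0, 21.4 and 9.25 in IEC12, and 150, 129 and 118 in AOC. IEC12 was above IEC4 in every library (1.98, SE 0.515, limma adjusted p = 0.0122), and AOC was above IEC12 (2.55, SE 0.471, adjusted p = 0.000614). Against IEC2 the log2 fold change of IEC12 was 1.67 (SE 0.515, adjusted p = 0.0258), and it no longer passed without IEC12 A, where it was 1.08, without IEC12 B (1.68) or without IEC2 C (1.43). COX8A, a small subunit, was at 352, 254 and 246 in IEC2, 144, 173 and 279 in IEC4, 739, 529 and 396 in IEC12, and 941, 929 and 1014 in AOC.

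Among the 10 nuclear genes of ATP synthase, 1 was higher and 0 lower in IEC4 against IEC2, 8 were higher and 0 lower in IEC12 against IEC4, and 2 were higher and 3 lower in AOC against IEC12. Among all genes the shares were 24.8% and 12.5%, 17.3% and 26.9%, and 22.4% and 36.2%, so that the AOC counts were near the background. ATP5F1A, the alpha subunit of the catalytic head, was at 748, 623 and 597 in IEC2, 646, 574 and 560 in IEC4, 1131, 1062 and 1013 in IEC12, and 609, 557 and 620 in AOC. IEC12 stood above all other libraries, with a log2 fold change against IEC4 of 0.85 (SE 0.124, limma adjusted p = 0.000712) and AOC against IEC12 at -0.84 (SE 0.11, adjusted p = 4.02e-05). ATP5ME, a membrane subunit, was at 18.0, 14.5 and 11.9 in IEC2, 10.3, 11.1 and 20.6 in IEC4, 179, 69.0 and 36.8 in IEC12, and 332, 321 and 308 in AOC. It rose 5.44-fold from IEC4 to IEC12 (2.44, SE 0.485, adjusted p = 0.00333) and was 4.11-fold higher in AOC than in IEC12 (2.04, SE 0.442, adjusted p = 0.00183). Without IEC12 A these log2 fold changes were 1.84 and 2.64. ATP5MC1 and ATP5MC3 encode the same mature c subunit of the rotor ring, and the related ATP5MC2 was not among the genes matched. ATP5MC1 was at 71.5, 50.6 and 46.4 in IEC2, 73.6, 88.1 and 130 in IEC4, 252, 248 and 199 in IEC12, and 211, 250 and 247 in AOC. ATP5MC3 was at 117, 83.6 and 81.3 in IEC2, 57.1, 66.2 and 100 in IEC4, 221, 180 and 144 in IEC12, and 405, 396 and 440 in AOC. The ratio of ATP5MC3 to ATP5MC1 was 1.68 ± 0.0627 in IEC2, 0.767 ± 0.0137 in IEC4, 0.775 ± 0.0867 in IEC12 and 1.76 ± 0.166 in AOC, so that IEC2 and AOC were apart from both later stages in every library.

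**Figure D5:**
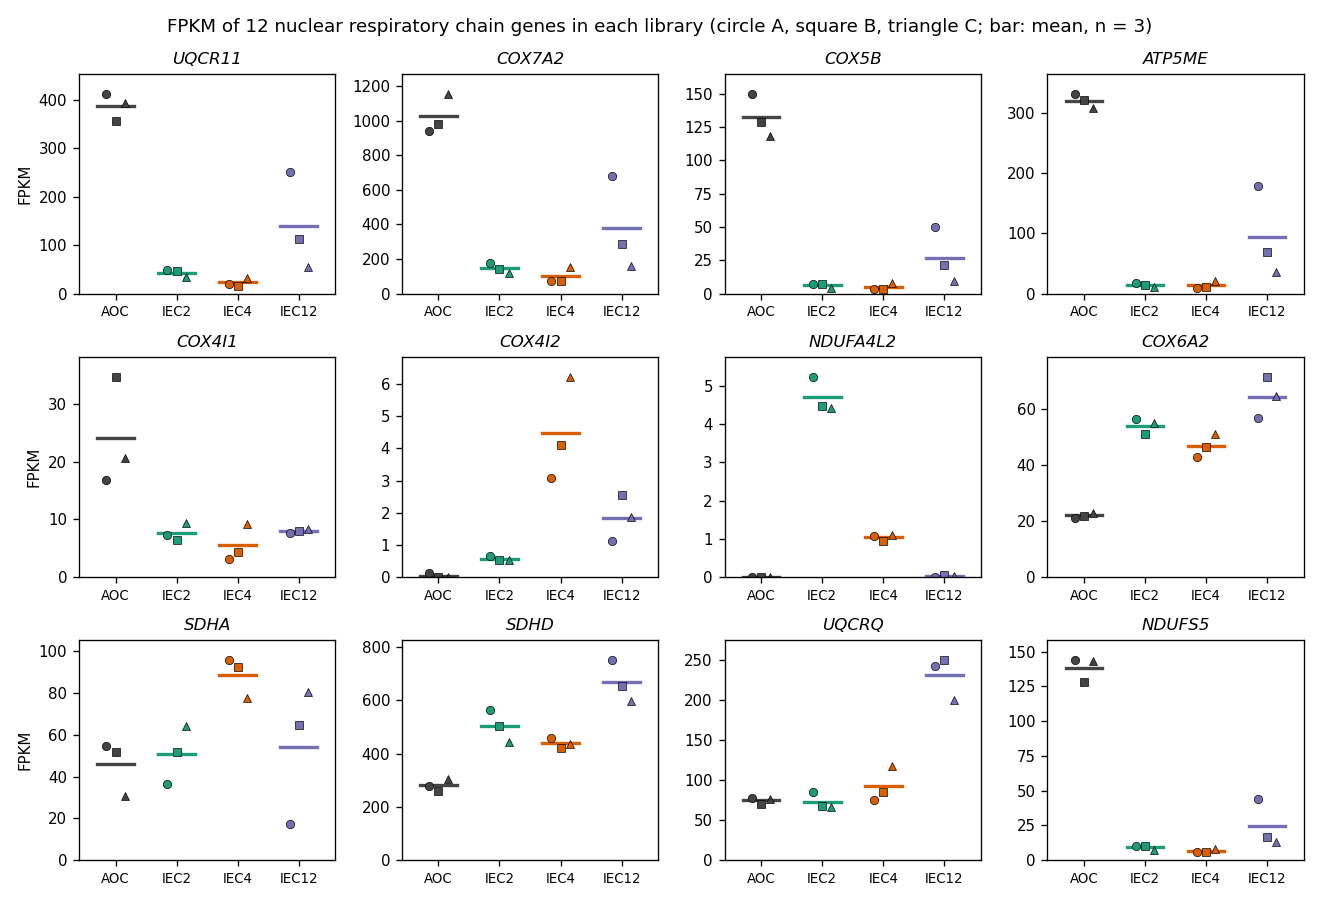
FPKM of 12 nuclear genes on linear axes from 0, by group, with a circle, square and triangle for replicates A, B and C and a bar for the mean (n = 3). UQCR11, COX7A2, COX5B, ATP5ME and NDUFS5 are highest in AOC and spread in IEC12 with replicate A on top, SDHD and UQCRQ are highest in IEC12, NDUFA4L2 is highest in IEC2, and SDHA is lowest in IEC12 A.

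The nuclear genes whose log2(FPKM + 1) followed the mitochondrial mean most closely over the 12 libraries were NDUFAF6 (Pearson's r = 0.91), ATP5MC1 (0.90), UQCRFS1 (0.84), COX7C (0.84) and ATP5PF (0.83). This is a description over libraries of 4 groups that share their scaling.

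Genes that act around the respiratory chain were listed by role, and are given by their counts, to be read against the shares of all genes. These were 24.8% higher and 12.5% lower in IEC4 against IEC2, 17.3% and 26.9% in IEC12 against IEC4, and 22.4% and 36.2% in AOC against IEC12. Some lists were near them. Mitochondrial transcription, RNA processing and translation had 21.4% and 9.5% in IEC4 against IEC2, and the citric acid cycle had 15.8% and 26.3% in IEC12 against IEC4. The genes of mitochondrial transcription, RNA processing and translation (45 of 49 found) had 9 of 42 higher and 4 lower in IEC4 against IEC2, 4 higher and 5 lower in IEC12 against IEC4, and 4 higher and 20 lower of 43 in AOC against IEC12. TFB2M, a factor that opens the mitochondrial promoter, was at 3.79 ± 1.49 in IEC2, 13.2 ± 1.48 in IEC4, 12.5 ± 1.66 in IEC12 and 11 ± 0.999 in AOC, and rose from IEC2 to IEC4 (1.62, SE 0.243, limma adjusted p = 0.000812). POLRMT, the mitochondrial RNA polymerase, fell from 5.34 ± 1.18 in IEC4 to 1.37 ± 1.27 in IEC12 (-1.55, SE 0.479, adjusted p = 0.026). It was at 0.248, 1.1 and 2.75 in IEC12 A, B and C and at 1.81, 6.09 and 8.14 in IEC2. Its part in the mitochondrial levels was not tested. Mitochondrial ribosomal proteins (55 of 61 tested) had 23 higher and 1 lower in IEC12 against IEC4, and 22 higher and 8 lower of 56 in AOC against IEC12. Import and folding factors had 12 of 24 higher and 3 lower in IEC12 against IEC4, and 3 higher and 11 lower in AOC against IEC12. Of the 19 genes of the citric acid cycle, 7 were higher and 4 lower in IEC4 against IEC2, and 3 were higher and 5 lower in IEC12 against IEC4. CYCS, cytochrome c, which carries electrons from complex III to IV, was at 32.5 ± 3.76 in IEC2, 37.4 ± 2.7 in IEC4, 95 ± 32.9 in IEC12 and 216 ± 9.34 in AOC, and rose from IEC4 to IEC12 (1.27, SE 0.217, adjusted p = 0.00154). Regulators of mitochondrial biogenesis had 4 of 15 higher and 1 lower in IEC4 against IEC2, 3 higher and 5 lower in IEC12 against IEC4, and 4 higher and 8 lower in AOC against IEC12. Assembly factors outside the NDUFAF genes had 8 of 27 higher and 1 lower, 4 higher and 2 lower, and, of 29, 8 higher and 9 lower in these comparisons. The other genes of oxidative phosphorylation, among them CYCS, had 4 of 23 higher and 2 lower, 8 higher and 2 lower, and 8 higher and 9 lower. Genes of mitochondrial dynamics and mitophagy had 1 of 13 higher and 0 lower, 2 higher and 5 lower, and 0 higher and 5 lower.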

How the data were processed

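The authors sequenced Smart-Seq2 cDNA, processed the reads with Galaxy, and deposited for every library a table of genes with their FPKM. The submitters' processing notes name TopHat2 2.0.12, Bowtie2 2.2.3, Cufflinks 2.2.1 and susScr11. FPKM depends on the length model and on the total of all fragments, so a gene set with a large share lowers the others. The number of reads is unknown and no counting interval is given. Symbols came from the supplied list of Ensembl names (13998 of 19681 identifiers had one), and RefSeq positions on Sscrofa11.1 were matched by symbol. No sequences were used.

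Differences were tested with limma 3.58.1 in R 4.3.3 (lmFit, contrasts.fit, eBayes with trend) on log2(FPKM + 1), for the IEC stages in the fit of 9 libraries and for AOC in the fit of 12. Tests for counts did not apply. Steps in low FPKM values gave whole multiples in only 42.7% to 54.5% of cases, within 0.02 on the log2 scale, so whole reads were not recovered. Genes named were the mitochondrial genes, the 3 largest changes per direction and comparison among passing nuclear genes whose replicates did not overlap, isoform pairs, complex II, the 2 highest genes of each other complex, the 5 most like the mitochondrial mean, and up to 3 per list of related genes. Not every gene under this rule is given. NDUFS1, NDUFAF1, NDUFA11, NDUFS6 and UQCRC2 fall outside this rule and were chosen after their values were seen. Members and lists were chosen with earlier results of these data known. In a simulation of IEC4 against IEC2 with 10542 genes, 53 of 100 genes with a planted log2 change of 1 were recovered, 87 of 100 with a change of 2, and 6 others were called. Replicate letters were not used to pair the samples, except in the replicate block. Tables were written in Python 3.11.15 (pandas 2.3.3, NumPy 2.4.6) and plots in matplotlib 3.10.9. Alternatives were a pseudocount of 0.1, no filter, other scalings, other libraries in the fit, the replicate block, other limits and each replicate left out.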

Additional observations from a re-analysis of the deposited data

How the results depend on the processing

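Counts of passing genes under the alternatives changed as follows. With the study's limits the counts were 0 for each set and comparison, except for 5 mitochondrial genes higher in IEC12 against IEC2. Median-of-ratios scaling gave 3 nuclear genes higher in IEC4 against IEC2 and 5 mitochondrial genes lower in AOC against IEC12. Without the filter on low values 7 mitochondrial genes were higher in IEC12 against IEC4, and with equal totals 23 nuclear genes were higher in IEC12 against IEC2. Counted without the members that reached the minimum only through their highest group, an alternative chosen after seeing the data, 1 nuclear gene was lower in IEC12 against IEC4 and 1 in IEC12 against IEC2. In the same way 2 were lower in IEC4 against IEC2, 37 were higher in IEC12 against IEC2 and 23 were higher in AOC against IEC12. The median over genes, in place of the mean, gave a change of the mitochondrial minus the nuclear level of 1.67 in IEC4 against IEC2 and -1.82 in AOC against IEC12. With each replicate left out in turn, nuclear genes higher in IEC4 against IEC2 numbered 3 to 5 and those lower 3 to 8, mitochondrial genes higher in IEC12 against IEC4 numbered 6 to 12, nuclear genes higher in IEC12 against IEC2 numbered 25 to 37, and mitochondrial genes higher in AOC against IEC12 numbered 0 to 2. Without IEC4 C 8 nuclear genes were lower in IEC4 against IEC2, and without IEC4 B or IEC2 C 3 were higher. ND6 in IEC4 against IEC2 changed its sign, from 0.11 to -0.03 with median-of-ratios scaling, and to -0.20 without IEC4 C and -0.09 without IEC2 A, with a range of -0.20 to 0.50 over the replicates left out, and did not pass in the comparison as reported. The causes of these changes were not tested. With the replicate block 8 mitochondrial and 35 nuclear genes were higher in IEC12 against IEC4, and 34 nuclear genes in IEC12 against IEC2. Deviations of libraries with the same letter correlated between -0.514 and 0.247. The labels do not say whether such libraries belong together, and correlations of deviations from means of 3 libraries cannot decide it. Of 1666 values of named genes under the alternatives, 1542 kept their direction and their side of the threshold, 115 no longer passed, 6 newly passed and 3 changed sign. For nuclear genes only comparisons in which they passed as reported were counted, so these genes could not newly pass. Many of them were named for their large changes, so these counts do not measure stability over all members. Depth limits low genes such as ND6, COX4I2 and NDUFA4L2 most, and values listed at 0 can be failed estimates.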
